A study of Homo sapiens with 18 samples.

Results

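The 8 genes *TYMS*, *FPGS*, *GGH*, *SLC19A1*, *TPMT*, *HPRT1*, *NT5C2* and *PRPS1*, which act on the antifolate methotrexate or on thiopurines, were read from the 26941 genes of the count tables. They were chosen by symbol, RefSeq transcripts were matched to symbols, and for each gene the transcript with the highest total count over the 18 samples was kept. All 8 passed the filter on low counts in every comparison. RNA had been sequenced from 3 established B-cell precursor acute lymphoblastic leukemia lines, REH, which carries the ETV6-RUNX1 fusion, 697 and RCH-ACV. Of the 6 samples of a line, 3 had received siRNA against the transcription factor gene *SOX11* and 3 a non-specific control siRNA. Both siRNAs were given at 300 nM by nucleofection, and RNA was collected 48 h later. The sample titles call the *SOX11* siRNA groups knockouts, but the samples are knockdowns, in which part of the target RNA remained. The study's methods describe the 3 replicates of a group as biological, and p-values measure the spread between them. Each is a single established line, so a difference between lines is not a difference between subtypes of the disease.

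Methotrexate and the thiopurines (mercaptopurine and thioguanine) are the backbone of maintenance treatment in acute lymphoblastic leukemia. Methotrexate enters cells through the reduced folate carrier SLC19A1, is held there as polyglutamates made by FPGS, is released by the hydrolase GGH, and as polyglutamates blocks thymidylate synthase, the product of *TYMS*. Thiopurines become active when HPRT1 joins them to the ribose phosphate donor made by PRPS1, and they are inactivated by methylation through TPMT or by the nucleotidase NT5C2, a gene mutated in relapsed leukemia.

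The libraries held between 7039505 and 16592565 counts, and 3 counts, the smallest number taken here to show a gene, corresponded to 0.181 to 0.426 CPM (the count scaled to a common library size). *SOX11* was lower in every *SOX11* siRNA sample than in every control sample of its line, with a log2 fold change of -0.83 for REH, -0.91 for 697 and -0.67 for RCH-ACV, so part of the RNA remained. Markers of B-cell precursors were abundant in all groups, with a sum over 10 genes between 3929 and 5951 CPM. The sum of 5 T-cell markers reached at most 0.580 CPM and that of 4 erythroid markers at most 0.391 CPM. The 5 myeloid markers summed to at most 24.7 CPM in REH, most of it from *MPO*, and to at most 1.69 CPM in the other lines. Pairs of replicates differed by 1.29 to 5.03 chi-square per degree of freedom, more than sampling noise in every pair. The third *SOX11* siRNA sample of RCH-ACV stood apart from the other 2 of its group (3.40 and 4.48, against 1.33 between those 2), as did the first control sample (4.17 and 5.03, against 1.78) and the third *SOX11* siRNA sample (3.49 and 4.60, against 1.59) of 697. Where leaving out one of these samples changed a call, the value without it is given beside the result.

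The genes lie on 7 chromosomes, given here with the bounds of GENCODE lifted to hg19, the build of the counts, and counts were taken over the exons of the transcript. On the folate side, *TYMS* lies on chromosome 18 from 657653 to 673578 (plus strand, 7 exons), *FPGS* on chromosome 9 from 130556876 to 130576606 (plus strand, 15 exons), *GGH* on chromosome 8 from 63927440 to 63951966 (minus strand, 9 exons) and *SLC19A1* on chromosome 21 from 46913486 to 46993279 (minus strand, 6 exons). On the thiopurine side, *TPMT* lies on chromosome 6 from 18128542 to 18155308 (minus strand, 9 exons), *HPRT1* on chromosome X from 133594195 to 133654543 (plus strand, 9 exons), *NT5C2* on chromosome 10 from 104846942 to 105037362 (minus strand, 19 exons) and *PRPS1* on chromosome X from 106871658 to 106895223 (plus strand, 7 exons).

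Per transcript length (RPKM, from GENCODE transcript lengths), *TYMS* was by far the highest of the 8 genes in every line, and *TPMT* had the lowest mean. With control siRNA *TYMS* stood at 347 ± 6.23 RPKM in REH, 331 ± 7.94 RPKM in 697 and 253 ± 1.25 RPKM in RCH-ACV (SD, n = 3 each), at or above the 98.5th percentile of the tested genes with a known length in each sample. In REH the order below it was *NT5C2* (75.8 RPKM), *PRPS1* (67.7 RPKM), *HPRT1* (64.7 RPKM), *FPGS* (62.7 RPKM), *GGH* (42.6 RPKM), *SLC19A1* (10.1 RPKM) and *TPMT* (9.18 RPKM). The samples of *PRPS1* and *HPRT1*, of *HPRT1* and *FPGS*, and of *SLC19A1* and *TPMT* overlapped there, so these neighbours could not be ordered.

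In 697 the order was *GGH* (103 RPKM), *HPRT1* (90.2 RPKM), *FPGS* (84.7 RPKM), *PRPS1* (68.3 RPKM), *NT5C2* (35.0 RPKM), *SLC19A1* (7.54 RPKM) and *TPMT* (2.21 RPKM). RCH-ACV had the same order, with *GGH* at 116 RPKM, *HPRT1* at 71.0 RPKM, *FPGS* at 70.9 RPKM, *PRPS1* at 63.2 RPKM, *NT5C2* at 31.5 RPKM, *SLC19A1* at 7.23 RPKM and *TPMT* at 3.08 RPKM. In both of these lines only *HPRT1* and *FPGS* overlapped among neighbours. *GGH* was thus second of 8 in 697 and RCH-ACV and sixth in REH, and *NT5C2* second in REH and sixth in the others. The lengths belong to GENCODE transcripts and the counts to RefSeq transcripts, which may differ, so RPKM values carry an error of scale that CPM values do not.

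**Figure D1:**
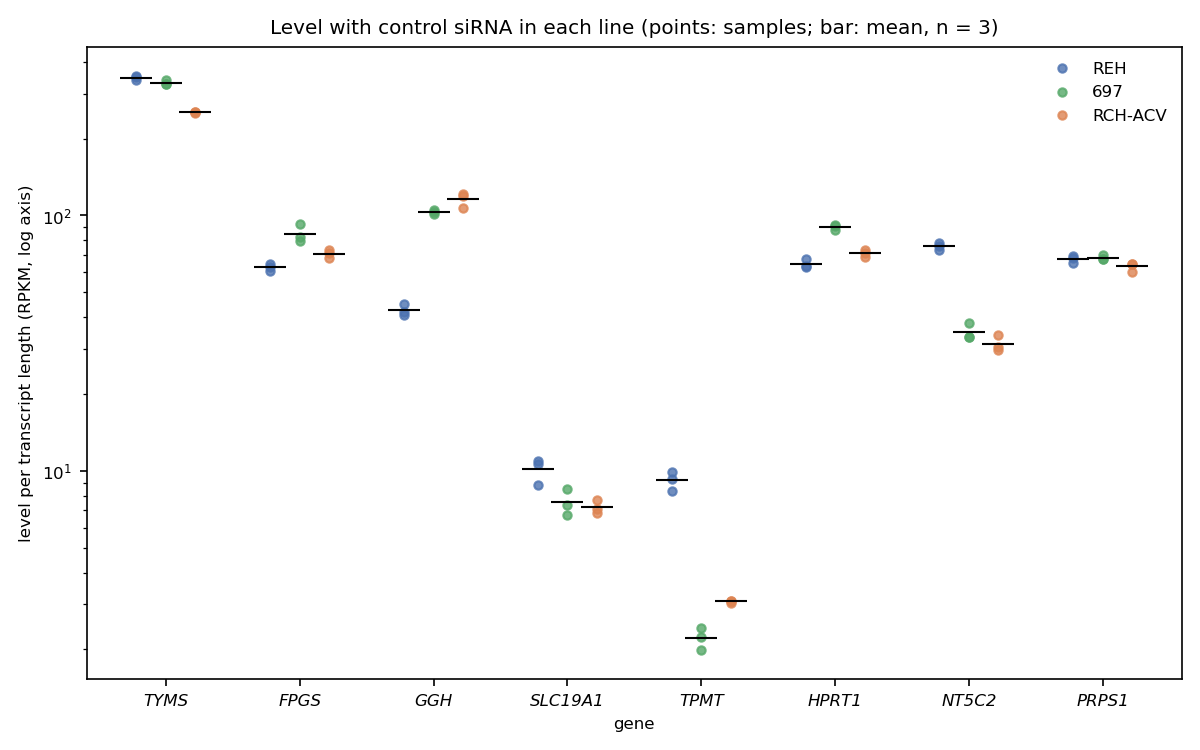
Level per transcript length (RPKM, log axis) of each gene with control siRNA in REH, 697 and RCH-ACV, where points are samples and bars are means of 3. *TYMS* lies above 250 RPKM in all 3 lines, *TPMT* and *NT5C2* are highest in REH, and *GGH* is lowest there.

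The stretch of 250 bases before the first transcription start that RefSeq lists was searched in 7 of the genes, and *GGH* was not searched. These sequences are shown for *TYMS* and *TPMT*, which had the highest and the lowest mean level. They are also shown for *FPGS* and *HPRT1*, the members that were higher with *SOX11* siRNA over the 3 lines. They are read 5′ to 3′ on the strand of the gene, on GRCh38.p14, and capitals mark 2 words on either strand, GCGGGAAA, a binding word of E2F factors, and GGGCGG, the GC box (overlapping copies run together).
TYMS, chr18:657403-657652, plus strand: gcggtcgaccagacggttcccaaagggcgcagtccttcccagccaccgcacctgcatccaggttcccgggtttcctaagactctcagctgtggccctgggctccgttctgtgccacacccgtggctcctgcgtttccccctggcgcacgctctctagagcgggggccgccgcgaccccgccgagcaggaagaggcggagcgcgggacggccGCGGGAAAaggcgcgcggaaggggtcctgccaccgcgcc
TPMT, chr6:18155170-18155419, minus strand: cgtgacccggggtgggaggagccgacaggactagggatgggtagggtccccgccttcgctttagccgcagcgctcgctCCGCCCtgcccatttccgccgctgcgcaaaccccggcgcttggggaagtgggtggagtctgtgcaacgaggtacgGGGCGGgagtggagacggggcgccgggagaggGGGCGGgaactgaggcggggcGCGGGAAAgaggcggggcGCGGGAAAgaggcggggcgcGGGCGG
FPGS, chr9:127802608-127802857, plus strand: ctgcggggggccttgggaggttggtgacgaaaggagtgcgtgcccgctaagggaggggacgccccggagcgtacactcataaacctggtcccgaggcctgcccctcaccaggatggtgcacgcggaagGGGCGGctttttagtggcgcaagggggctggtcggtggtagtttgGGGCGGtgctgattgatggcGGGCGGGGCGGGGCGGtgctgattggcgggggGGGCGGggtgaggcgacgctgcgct
HPRT1, chrX:134459915-134460164, plus strand: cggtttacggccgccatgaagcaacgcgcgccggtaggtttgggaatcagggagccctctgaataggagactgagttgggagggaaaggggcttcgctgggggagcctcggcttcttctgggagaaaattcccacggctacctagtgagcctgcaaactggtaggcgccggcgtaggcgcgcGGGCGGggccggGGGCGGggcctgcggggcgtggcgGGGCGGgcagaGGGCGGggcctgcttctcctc
*TYMS* held 1 copy of GCGGGAAA and *TPMT* 2, a word found in 1.42% of the 27305 promoters of this length. The GC box, found in 42.3% of promoters, occurred 6 times in *FPGS*, 4 times each in *HPRT1* and *TPMT*, and 2 times in *PRPS1*. A copy of CCAAT was in *FPGS* and *PRPS1* (33.0% of promoters). AACAAAG, a word of SOX factors, was in *SLC19A1* (4.54% of promoters), and CACGTG, the E-box, was in 0 of the 7 (6.49% of promoters). Words were matched as letters and show no binding. The start used was not matched to the counted transcript, so a window may not lie before the transcript measured. The windows of *SLC19A1* and *NT5C2* were 47.2% and 33.6% GC, against 63.6% to 73.6% in the other genes searched.

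Of the 8 genes *TPMT* differed most between the lines. *TPMT*, the thiopurine methyltransferase, was counted in the control samples of REH at 31.5, 29.7 and 26.5 CPM. In 697 it was counted at 7.13, 6.32 and 7.70 CPM. In RCH-ACV it was at 9.68, 9.88 and 9.90 CPM. Every REH sample lay above every sample of the other lines, and every RCH-ACV sample above every 697 sample. The level in REH was 4.16 times that in 697 (log2 fold change 2.06, standard error 0.11, edgeR's adjusted p = 4.47e-15) and 3.00 times that in RCH-ACV (log2 fold change 1.58, standard error 0.10, edgeR's adjusted p = 1.55e-13). RCH-ACV exceeded 697 by 0.47 on the log2 scale (standard error 0.14, edgeR's adjusted p = 0.00533), a difference that rests on 76 to 85 counts a sample against 43 to 58. In bulk RNA such as this, fewer cells of a kind and less RNA per cell cannot be told apart, and the lines may have been handled at different times, so line and handling cannot be told apart either.

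*NT5C2*, the cytosolic nucleotidase that dephosphorylates thiopurine nucleotides, followed *TPMT* in direction. Its control samples stood at 276, 259 and 267 CPM in REH. They stood at 134, 118.1 and 118.0 CPM in 697 and at 108, 105 and 120.2 CPM in RCH-ACV. The REH samples lay above all others, while those of 697 and RCH-ACV overlapped. REH exceeded 697 2.16-fold (log2 1.11, standard error 0.07, edgeR's adjusted p = 3.18e-14) and RCH-ACV 2.41-fold (log2 1.27, standard error 0.07, edgeR's adjusted p = 2.74e-15). RCH-ACV and 697 differed by -0.15 on the log2 scale (95% interval -0.30 to -0.01, edgeR's adjusted p = 0.0612), short of the threshold of 0.05. This call was gained under 2 of 9 other settings, a block for the replicate number (edgeR's adjusted p = 0.0484) and the 9 control samples alone (edgeR's adjusted p = 0.0443). It was gained too without control samples 2 or 3 of 697, control sample 3 of RCH-ACV or the *SOX11* siRNA sample of RCH-ACV that stood apart (log2 -0.22 to -0.16, edgeR's adjusted p between 0.0185 and 0.0452).

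The activating enzymes varied less. *HPRT1*, which salvages hypoxanthine and guanine and activates thiopurines, stood at 94.5, 88.6 and 87.8 CPM in the REH controls. The 697 controls were at 127, 122 and 128 CPM and the RCH-ACV controls at 95.8, 102 and 99.2 CPM. The 3 lines did not overlap, with REH lowest and 697 highest. REH was 1.39 times lower than 697 (log2 -0.48, standard error 0.05, edgeR's adjusted p = 5.52e-09), and 1.10 times lower than RCH-ACV (log2 -0.13, standard error 0.05, edgeR's adjusted p = 0.0267). The second of these was not called when counts were scaled by library size alone (edgeR's adjusted p = 0.204), a scaling that moves every gene by 0.06 in this comparison on the log2 scale, by 0.12 between REH and 697 and by 0.06 between RCH-ACV and 697. It was also lost without control samples 2 or 3 of REH or control samples 2 or 3 of RCH-ACV (edgeR's adjusted p between 0.0603 and 0.102).

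*PRPS1*, which makes phosphoribosyl pyrophosphate, was the most even of the 8 genes, with control samples between 125 and 145 CPM in all 3 lines. The ratio of the highest to the lowest line mean was 1.08, against 4.15 for *TPMT*. REH and 697 differed by -0.01 on the log2 scale (95% interval -0.11 to 0.09, edgeR's adjusted p = 0.851), a sign that turns to 0.11 with library size alone. RCH-ACV was lower than 697 by 0.11 with an adjusted p of 0.0478 (edgeR), a call that was lost under 6 of 9 other settings and in 8 of 18 fits that left out 1 sample (edgeR's adjusted p between 0.0380 and 0.209 over the 18, and 0.140 without the first control sample of 697, which stood apart). REH exceeded RCH-ACV by 0.10 on the log2 scale with no overlap of samples, and edgeR's adjusted p was 0.0580. With library size alone it was 0.16 and called (edgeR's adjusted p = 0.00266), and it was called without control sample 3 of REH (0.12, edgeR's adjusted p = 0.0395) or the third *SOX11* siRNA sample of RCH-ACV (0.10, edgeR's adjusted p = 0.0497).

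Among the methotrexate genes *GGH* differed most. *GGH*, the hydrolase that removes glutamates from stored folates and methotrexate, stood at 56.4, 51.0 and 52.0 CPM in the REH controls. It stood at 131, 129 and 127 CPM in 697 and at 149, 151 and 134 CPM in RCH-ACV. All REH samples lay below all samples of both other lines. *GGH* was 2.43 times lower in REH than in 697 (log2 -1.28, standard error 0.06, edgeR's adjusted p = 5.76e-16) and 2.72 times lower than in RCH-ACV (log2 -1.44, standard error 0.06, edgeR's adjusted p = 3.78e-17). RCH-ACV exceeded 697 by 0.16 (standard error 0.06, edgeR's adjusted p = 0.0144), which was not called without control sample 3 of 697 or control samples 1 or 2 of RCH-ACV (edgeR's adjusted p between 0.0501 and 0.0804).

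*FPGS*, the synthetase that adds those glutamates, stood at 139, 147 and 144 CPM in REH, at 182, 187 and 211 CPM in 697 and at 163, 155 and 168 CPM in RCH-ACV with control siRNA. The ranges of the 3 lines were separate, with REH lowest. REH was 1.35 times lower than 697 (log2 -0.43, standard error 0.06, edgeR's adjusted p = 4.06e-07). It was 1.13 times lower than RCH-ACV (log2 -0.18, standard error 0.06, edgeR's adjusted p = 0.0104), which was not called with library size alone (edgeR's adjusted p = 0.105) or without control sample 3 of RCH-ACV (edgeR's adjusted p = 0.0516). RCH-ACV was 1.19 times lower than 697 (edgeR's adjusted p = 0.000645).

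*SLC19A1*, the carrier through which methotrexate enters, was counted at 44.1, 54.8 and 53.0 CPM in REH, 33.7, 36.7 and 42.6 CPM in 697 and 34.2, 35.5 and 38.6 CPM in RCH-ACV. The REH samples lay above the others, and 697 and RCH-ACV overlapped. REH exceeded 697 1.35-fold (log2 0.43, standard error 0.09, edgeR's adjusted p = 8.49e-05) and RCH-ACV 1.40-fold (log2 0.49, standard error 0.09, edgeR's adjusted p = 1.47e-05). Between RCH-ACV and 697 the difference was -0.06 (95% interval -0.25 to 0.14, edgeR's adjusted p = 0.602), and its sign turned with library size alone (0.005).

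*TYMS*, the target enzyme that makes thymidylate, stood at 568, 548 and 560.2 CPM in the REH controls. It stood at 549, 527.4 and 526.7 CPM in 697 and at 406, 409.1 and 409.96 CPM in RCH-ACV. Here RCH-ACV was the line that stood apart, below all samples of the others, whose ranges overlapped. It was 1.37 times lower than REH (log2 0.45 for REH over RCH-ACV, standard error 0.04, edgeR's adjusted p = 5.02e-11) and 1.31 times lower than 697 (log2 -0.39, standard error 0.04, edgeR's adjusted p = 1.73e-09). REH and 697 differed by 0.06 (95% interval -0.01 to 0.14, edgeR's adjusted p = 0.120), and by 0.19 with library size alone, which was called (edgeR's adjusted p = 1.37e-05).

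In all, 6 members were called between REH and 697 (3 higher and 3 lower in REH), where 75.7% of the 14026 tested genes were called. Between REH and RCH-ACV 7 were called (4 higher and 3 lower in REH), against 73.8% of tested genes. Between RCH-ACV and 697 6 were called (2 higher and 4 lower in RCH-ACV), against 63.6%. The samples of the compared lines did not overlap for 6, 8 and 6 members, where 76.1%, 77.1% and 66.0% of tested genes did not overlap. The members were thus called about as often as other genes, and what set *TPMT*, *NT5C2* and *GGH* apart from the other 5 members was the size of the difference. The comparisons share control groups and are not independent of each other.

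The comparison of siRNAs asks whether loss of *SOX11* RNA goes with a change in these genes. In REH, 697 and RCH-ACV 0 of 8 members were called by edgeR's quasi-likelihood test, where 4.64%, 0.559% and 7.64% of tested genes were called, and DESeq2 also called 0 in each line. At an unadjusted p under 0.05 edgeR had 3 members in REH, 1 in 697 and 2 in RCH-ACV, where it had 2159 of 12787, 1011 of 12169 and 2934 of 12964 tested genes. Samples of the 2 siRNAs did not overlap for 1 member in REH, 2 in 697 and 2 in RCH-ACV, against 21.4%, 13.1% and 25.9% of tested genes. The median log2 fold change of the members was 0.09 (REH), 0.03 (697) and -0.02 (RCH-ACV), and that of all tested genes lay between -0.003 and 0.005.

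**Figure D2:**
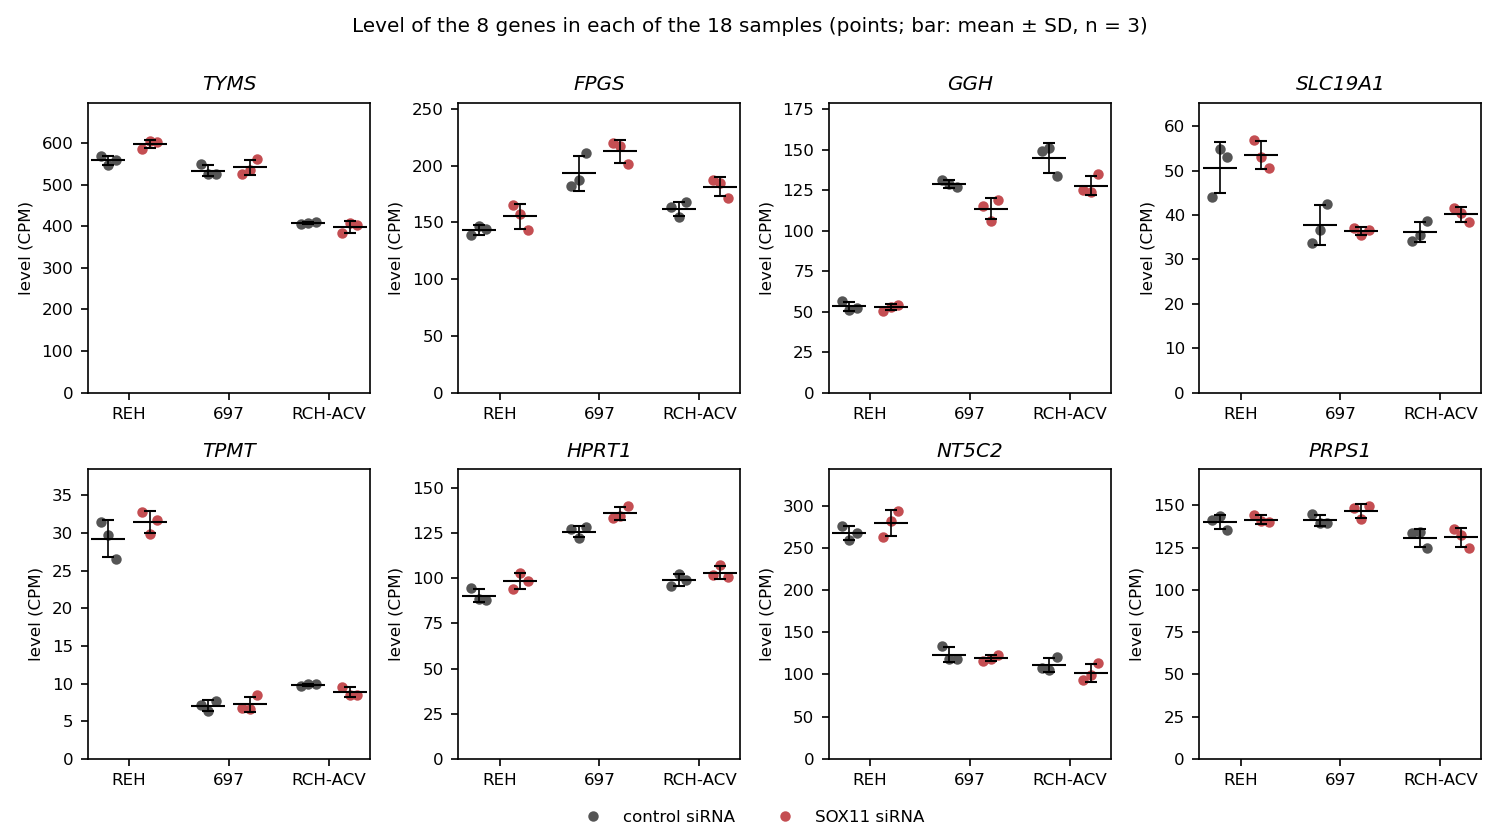
Level (CPM, axes from 0) of the 8 genes in each of the 18 samples, with control siRNA in grey and *SOX11* siRNA in red, where the bars give the mean ± SD of 3 samples. The distance between lines is large for *TPMT*, *NT5C2* and *GGH*, and the distance between siRNAs is small next to it.

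*TYMS* came nearest to the threshold in REH. Its samples stood at 568, 548 and 560.2 CPM with control siRNA and at 587, 606 and 603 CPM with *SOX11* siRNA, with no overlap. The log2 fold change was 0.10 (standard error 0.03, 95% interval 0.04 to 0.17), with edgeR's adjusted p at 0.0550. In 697 and RCH-ACV the *TYMS* samples overlapped between the siRNAs, with log2 fold changes of 0.02 (95% interval -0.07 to 0.11) and -0.03 (95% interval -0.12 to 0.05). With each library corrected for transcript GC content, an alternative chosen after seeing the data, *TYMS* was called in REH (log2 0.12, edgeR's adjusted p = 0.00613). Whether the effect on *TYMS* differed by line was also tested (edgeR's adjusted p = 0.516).

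*TYMS* is an S-phase gene. Among all tested genes 4.64% were called in REH, 0.559% in 697 and 7.64% in RCH-ACV. Of 19 other S-phase genes tested in REH, 4 were higher with *SOX11* siRNA and 0 lower, with a median log2 fold change of 0.09. The 4 were *TK1*, thymidine kinase (log2 0.24), *CCNE2*, a cyclin of the entry into S phase (0.19), *E2F1*, the transcription factor (0.14), and *RRM2*, a subunit of ribonucleotide reductase (0.13). With 1 sample left out at a time, these calls held in 6 of 6 fits for *TK1*, 4 for *RRM2*, 2 for *E2F1* and 1 for *CCNE2*. In RCH-ACV 1 of the 19 was higher (*TK1*) and 1 lower (*CCNE2*, a call that held in 6 of 6 such fits), with a median of -0.01. In 697 0 were called by edgeR, with a median of -0.01. The myeloid marker *MPO* fell in REH by 0.78 on the log2 scale, the 1 call among 3 myeloid markers tested there. The sum of B-precursor markers in REH was 5495 to 5646 CPM with control siRNA and 5898 to 5951 CPM with *SOX11* siRNA. In 697 the same sum lay lower with *SOX11* siRNA (4478 to 4668 CPM, against 5121 to 5436 CPM). The ranges overlapped for RCH-ACV (3929 to 4705 CPM, against 4652 to 4859 CPM). Such a sum is weighted to its most abundant markers and can hide markers that go the other way. For REH edgeR called 2 of 9 tested B-precursor markers higher with *SOX11* siRNA and 1 lower (median log2 fold change 0.03). For 697 it called 0 of 10 higher and 2 lower (median -0.07). Of 10 tested for RCH-ACV, 3 were called higher and 1 lower (median 0.06). The part of cell cycle or of cell state in the value of *TYMS* was not tested.

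The pair of enzymes that set polyglutamate length had effects of opposite sign, none of them called in a single line, and *GGH* in REH was near 0 (-0.01), with a sign that turned when control sample 1 or *SOX11* siRNA sample 1 was left out. *FPGS* in REH stood at 139, 147 and 144 CPM with control siRNA and at 165, 157 and 143.6 CPM with *SOX11* siRNA. In 697 it stood at 182, 187 and 211 CPM, and at 219.9, 217 and 201 CPM after *SOX11* knockdown. In RCH-ACV it stood at 163, 155 and 168 CPM, and at 187, 185 and 172 CPM after knockdown. The siRNA groups overlapped in REH and 697 and were separate in RCH-ACV. For REH the log2 fold change was 0.12 (95% interval 0.02 to 0.22, edgeR's adjusted p = 0.184). For 697 it was 0.14 (-0.02 to 0.29, edgeR's adjusted p = 0.684) and for RCH-ACV 0.16 (0.06 to 0.27, edgeR's adjusted p = 0.0549).

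*GGH* in REH was counted at 56.4, 51.0 and 52.0 CPM with control siRNA and 50.6, 53.0 and 54.2 CPM with *SOX11* siRNA. In 697 it stood at 131, 129 and 127 CPM, against 115, 106 and 119 CPM with *SOX11* siRNA, with no overlap. In RCH-ACV it stood at 149, 151 and 134 CPM, against 125, 124 and 135 CPM, where 1 sample of each group overlapped. Its log2 fold change for REH was -0.01 (95% interval -0.14 to 0.11, edgeR's adjusted p = 0.961). For 697 it was -0.19 (-0.31 to -0.06, edgeR's adjusted p = 0.297) and for RCH-ACV -0.18 (-0.30 to -0.06, edgeR's adjusted p = 0.0564). The sum of B-precursor markers also lay lower after knockdown in 697, with no overlap, and its part in the value of *GGH* was not tested.

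In RCH-ACV whether *FPGS* and *GGH* were called depended on the samples and settings used. Their signs held in all 6 fits that left out 1 sample (log2 0.13 to 0.20 and -0.23 to -0.15). With library size alone *FPGS* was called (edgeR's adjusted p = 0.0468). With all transcripts kept apart both were called (edgeR's adjusted p of 0.0489 for *FPGS* and 0.0476 for *GGH*). Without the third *SOX11* siRNA sample, which stood apart from its group, 3 members were called, *FPGS* (log2 0.20, edgeR's adjusted p = 0.00105), *GGH* (-0.22, edgeR's adjusted p = 0.00182) and *NT5C2* (-0.20, edgeR's adjusted p = 0.00788), and the count of all genes called rose from 991 to 2524. Without the third control sample *GGH* alone was called (-0.23, edgeR's adjusted p = 0.0336). The libraries of this line also differed with the GC content of the transcripts. *FPGS*, whose transcript is 63.7% GC, fell within a range of GC content that stood 0.11 higher on the log2 scale in the *SOX11* siRNA samples, and *GGH*, at 39.5% GC, in one shifted by -0.05. With that removed the RCH-ACV value of *FPGS* was 0.05 (edgeR's adjusted p = 0.480) and that of *GGH* was -0.13 (edgeR's adjusted p = 0.107). In REH, where the corresponding shifts were 0.0004 and -0.0002, *FPGS* stayed at 0.12 and was called (edgeR's adjusted p = 0.0470), as it was without the third *SOX11* siRNA sample of REH (log2 0.18, edgeR's adjusted p = 0.0217).

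The log2 effect on *HPRT1* was 0.12 for REH (95% interval 0.02 to 0.23), 0.11 for 697 (-0.01 to 0.22) and 0.06 for RCH-ACV (-0.05 to 0.18), and none of these was called (edgeR's adjusted p of 0.185, 0.648 and 0.505). After knockdown its samples were at 93.9, 103 and 98.6 CPM for REH, 133, 134 and 139.9 CPM for 697, and 102, 108 and 100.4 CPM for RCH-ACV. They lay above all controls in 697 and overlapped them in the other lines.

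The remaining members gave no call and mixed signs. The log2 effect on *TPMT* was 0.10 for REH (95% interval -0.05 to 0.26), 0.04 for 697 (-0.32 to 0.40) and -0.16 for RCH-ACV (-0.42 to 0.10). Its intervals were the widest of the members in 697, where it had 43 to 75 counts a sample. *SLC19A1* had values of 0.08 for REH (-0.07 to 0.23), -0.05 for 697 (-0.27 to 0.17) and 0.15 for RCH-ACV (-0.0004 to 0.31). *NT5C2* had 0.07 (-0.01 to 0.15), -0.05 (-0.18 to 0.08) and -0.12 (-0.27 to 0.02) in the same order. *PRPS1* was the most stable, with 0.02 (-0.07 to 0.10), 0.05 (-0.06 to 0.16) and 0.003 (-0.11 to 0.11) in the same order.

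**Figure D3:**
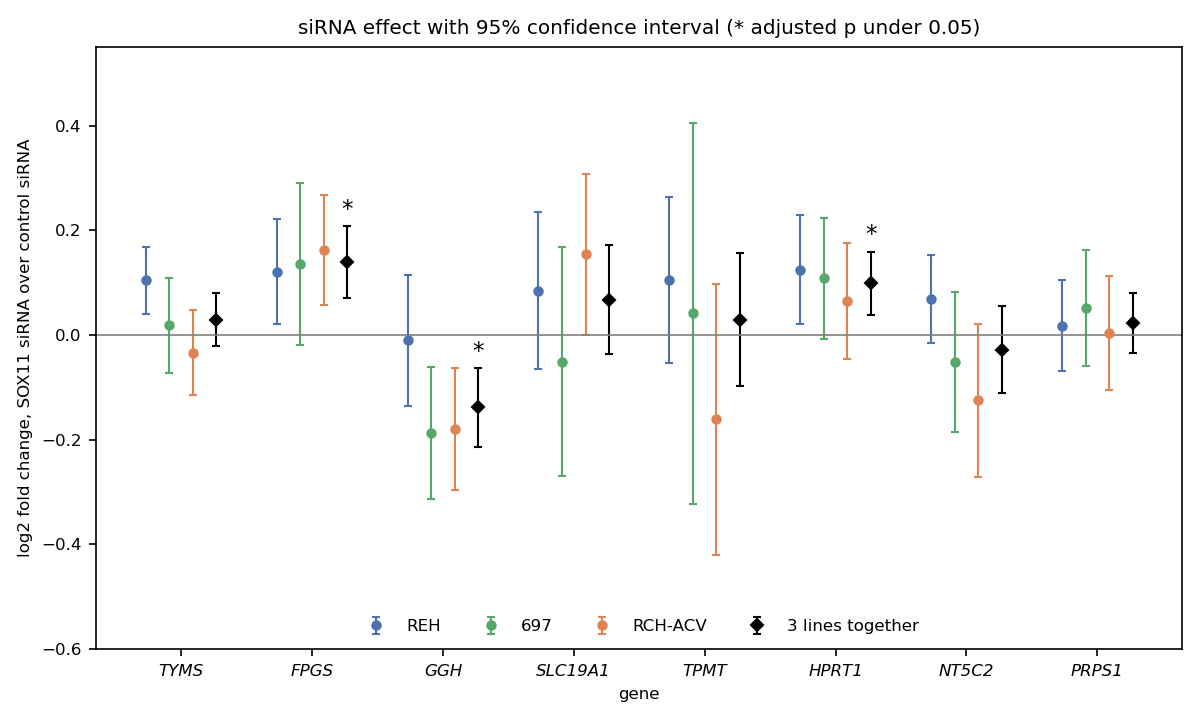
Log2 fold change of *SOX11* siRNA over control siRNA with its 95% confidence interval for each gene in REH, 697, RCH-ACV and the 3 lines fitted together, where an asterisk marks an adjusted p under 0.05 (edgeR). The asterisks stand only over the joint values of *FPGS* (0.14), *GGH* (-0.14) and *HPRT1* (0.10).

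When the siRNA effect was estimated once over the 18 samples with cell line as a covariate, 3 of 8 members were called, where 9.02% of the 14026 tested genes were. *FPGS* was higher by 0.14 (standard error 0.03, edgeR's adjusted p = 0.00797), a rise of 10.1%. *GGH* was lower by 9.13% (log2 -0.14, standard error 0.04, edgeR's adjusted p = 0.0156). *HPRT1* was higher by 7.06% (log2 0.10, standard error 0.03, edgeR's adjusted p = 0.0345). These are small effects, under the difference between any pair of lines for *GGH* and under that between 697 and the other lines for *FPGS* and *HPRT1*.

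*FPGS* stayed called in all 18 fits that left out 1 sample (log2 0.13 to 0.16) and under each of 9 other settings (0.11 to 0.14), the GC correction among them. *GGH* stayed called in the same 18 fits (-0.15 to -0.12) and under 8 of the 9 settings, the exception being a block for the replicate number (edgeR's adjusted p = 0.0575). *HPRT1* was called in 9 of the 18 such fits (edgeR's adjusted p between 0.0269 and 0.0809) and under 7 of the 9 settings. It was lost without control samples 2 or 3 or *SOX11* siRNA samples 2 or 3 of REH, control sample 2 or *SOX11* siRNA sample 3 of 697, or control samples 1 or 3 or *SOX11* siRNA sample 2 of RCH-ACV. Without *SOX11* siRNA sample 3 of 697, which stood apart, the value of *HPRT1* was 0.09 (edgeR's adjusted p = 0.0532). The other 5 members had joint values between -0.03 for *NT5C2* and 0.07 for *SLC19A1*, with edgeR's adjusted p between 0.487 and 0.845. Tests of whether the siRNA effect differed between the lines called 0 of 8 members by edgeR and 0 by DESeq2, against 0.727% of tested genes called by edgeR. At an unadjusted p under 0.05 edgeR had 0 members and 1434 of 14026 tested genes. So the flat value of *GGH* in REH was not shown to differ from its values in the other lines (edgeR's adjusted p = 0.653).

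Within 1 library the ratio of *FPGS* to *GGH* counts does not depend on scaling. This ratio was looked at after the values of both genes were known, so its p-values restate those values and are no separate test. In REH it was 2.46, 2.88 and 2.77 with control siRNA and 3.27, 2.97 and 2.65 with *SOX11* siRNA. In 697 it was 1.38, 1.46 and 1.67, against 1.91, 2.05 and 1.69 with *SOX11* siRNA. In RCH-ACV it was 1.10, 1.03 and 1.25, against 1.50, 1.50 and 1.27. The siRNA groups overlapped in REH and were separate in 697 and RCH-ACV. The mean log2 ratio with *SOX11* siRNA was higher by 0.13 in REH (two-sided exact permutation test, p = 0.4), 0.33 in 697 (p = 0.1, exact permutation) and 0.34 in RCH-ACV (p = 0.1, exact permutation), where 0.1 is the smallest p that 3 samples against 3 allow. Over the 3 lines, with siRNA permuted within lines, the mean difference was 0.27 (exact permutation test, p = 0.0025, where 0.00025 is the smallest possible), and it was 0.22 after GC correction. The values by line are not corrected for GC content, which the ratio can follow. The shifts with GC content were 0.11 for *FPGS* and -0.05 for *GGH* in RCH-ACV, and -0.015 and 0.007 in 697. The lines themselves differed more, from 2.70 ± 0.218 in REH through 1.50 ± 0.147 in 697 to 1.13 ± 0.115 in RCH-ACV with control siRNA (SD, n = 3 each).

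**Figure D4:**
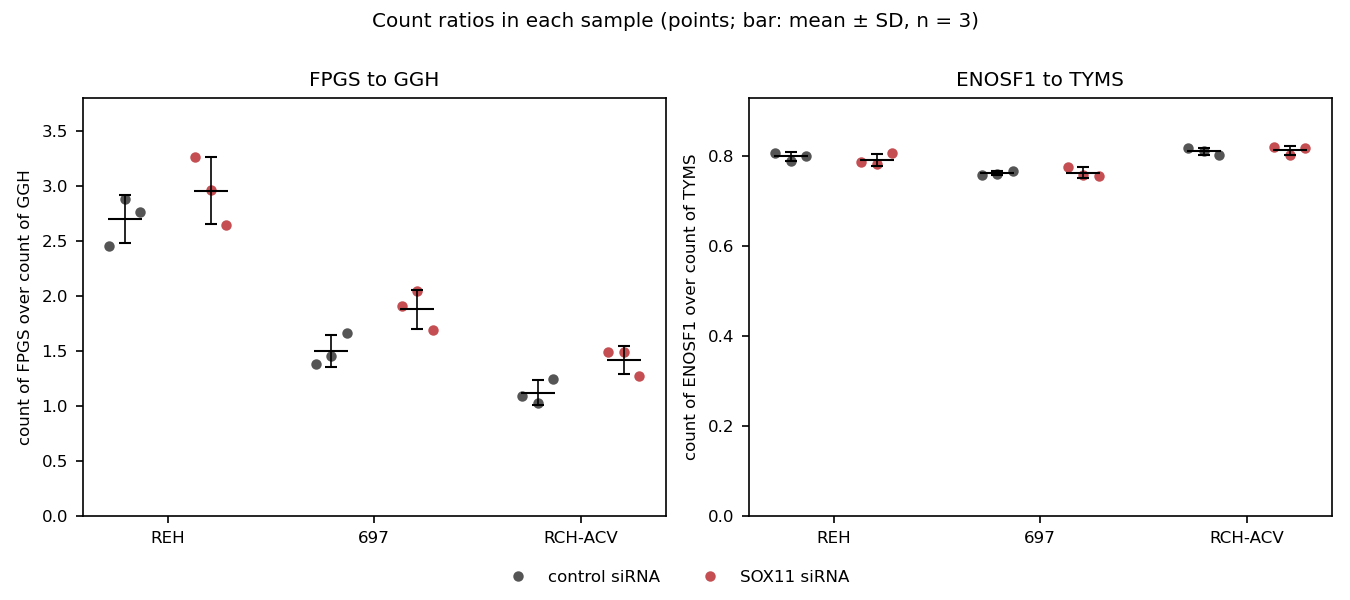
Ratio of *FPGS* to *GGH* counts (left) and of *ENOSF1* to *TYMS* counts (right) in each sample, with control siRNA in grey and *SOX11* siRNA in red, where bars give the mean ± SD of 3. The first ratio is highest in REH and higher with *SOX11* siRNA in 697 and RCH-ACV, and the second stays between 0.754 and 0.818 in all samples.

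The counts of *TYMS* have a limit. *ENOSF1* lies on the opposite strand and overlaps 3261 bases of the *TYMS* locus, and its counts were between 0.754 and 0.818 of those of *TYMS* in all 18 samples. Whether the counting used strand is not given in the sources used here, so reads of these genes cannot be told apart. The log2 effect on *ENOSF1* was 0.09 (REH), 0.02 (697) and -0.03 (RCH-ACV), against 0.10, 0.02 and -0.03 for *TYMS*. *PRPS1L1*, a copy of *PRPS1* used in testis, was at 0 counts in all 18 samples, and *PRPS2*, the second synthetase gene of the pathway, was counted apart at 73.3 CPM in REH, 134 CPM in 697 and 122 CPM in RCH-ACV with control siRNA. *PRPS2* was lower in REH than in 697 by 0.88 and than in RCH-ACV by 0.74 on the log2 scale, while *PRPS1* did not differ by more than 0.11 between any lines.

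For 24 further genes of folate transport, efflux and one-carbon metabolism, calls with *SOX11* siRNA were set beside the share of all tested genes called. That share was 4.64% in REH, 0.559% in 697, 7.64% in RCH-ACV and 9.02% over the 3 lines together. In REH 1 of 19 tested was called, *ABCG2*, an efflux pump that exports methotrexate, which went from between 6.08 and 6.94 CPM to between 10.0 and 11.6 CPM (log2 0.74, standard error 0.13, edgeR's adjusted p = 0.000999). In 697 0 of 17 were called (edgeR), and *ABCG2*, higher there at 24.7 to 27.9 CPM with control siRNA, had a log2 fold change of 0.23 (edgeR's adjusted p = 0.498). In RCH-ACV 2 of 18 were called, *SHMT2*, the mitochondrial serine hydroxymethyltransferase (0.15), and *MTHFD2L*, a mitochondrial folate dehydrogenase (-0.66). *ABCG2* was at 0.349 to 1.14 CPM in RCH-ACV and was not tested there. List medians were -0.02 (REH), 0.01 (697) and 0.05 (RCH-ACV). Over the 3 lines together *ABCG2* rose by 0.38 and *MTHFD2L* fell by 0.33 on the log2 scale, the 2 calls among 19 tested. With 1 sample left out at a time, the joint call of *ABCG2* held in 18 of 18 fits and that of *MTHFD2L* in 12. The call of *ABCG2* in REH held in 6 of 6 such fits, and those of *SHMT2* and *MTHFD2L* in RCH-ACV in 1 of 6 each.

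Between lines the called folate genes with the largest differences were *ABCG2*, *SLC46A1*, *ABCC4* and *ALDH1L2*. With control siRNA *ABCG2* was 4.11 times lower in REH and 32.5 times lower in RCH-ACV than in 697. It was 7.92 times higher in REH than in RCH-ACV, where its level was close to the smallest taken to show a gene. *SLC46A1*, the proton-coupled folate transporter, stood at 6.64 to 7.70 CPM in REH, 1.22 to 1.84 CPM in 697 and 36.2 to 38.2 CPM in RCH-ACV with control siRNA. *ABCC4*, a pump for methotrexate and thiopurine nucleotides, stood at 25.4 to 26.4 CPM in REH, below 85.8 to 102 CPM in 697 and 88.5 to 93.6 CPM in RCH-ACV. *ALDH1L2*, a mitochondrial formyltetrahydrofolate dehydrogenase, was at 4.53 to 5.55 CPM in REH and 9.23 to 12.3 CPM in RCH-ACV but at no more than 0.147 CPM in 697. Of 19 tested genes of this list, 18 were called between REH and 697 (8 higher in REH), 18 between REH and RCH-ACV (9 higher in REH) and 14 between RCH-ACV and 697 (3 higher in RCH-ACV), where 75.7%, 73.8% and 63.6% of all tested genes were called.

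Of 27 further genes of thiopurine transport, activation, inactivation and mismatch repair, 0 of 22 tested were called in REH and 0 of 22 in 697 by edgeR. Among all tested genes 4.64% and 0.559% were called there. In RCH-ACV 4 of 23 were higher, where 7.64% of all tested genes were called in either direction. The 4 were *AOX1*, an oxidase of purine analogues, which went from between 0.932 and 1.82 CPM to between 3.16 and 3.60 CPM (log2 1.34, edgeR's adjusted p = 0.00375), *PNP*, purine nucleoside phosphorylase (0.19), *MSH6*, a subunit of the mismatch repair complex that senses thioguanine in DNA (0.20), and *SLC29A2*, a nucleoside transporter (0.32). List medians were 0.001 (REH), 0.04 (697) and 0.09 (RCH-ACV). Over the 3 lines *AOX1*, *PNP* and *MSH6* rose and *NT5E*, the surface nucleotidase, fell by 0.24 on the log2 scale. These were 4 calls among 23 tested, against 9.02% of all tested genes. *AOX1* was at 0 counts in all 697 control samples, so that joint value rests mainly on RCH-ACV. With 1 sample left out at a time, the joint call of *MSH6* held in 5 of 18 fits, that of *PNP* in 17, and those of *AOX1* and *NT5E* in 18. Within RCH-ACV the call held in 6 of 6 such fits for *AOX1*, 3 for *MSH6*, 2 for *PNP* and 1 for *SLC29A2*.

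The level of *MSH6* set RCH-ACV apart. It stood at 929 to 986 CPM in REH and 1363 to 1554 CPM in 697 with control siRNA, but at 134 to 144 CPM in RCH-ACV, 6.87 times lower than REH and 10.4 times lower than 697. *IMPDH2*, which makes the precursor of thioguanine nucleotides, was at 140.1 to 148 CPM in REH, 553 to 569 CPM in 697 and 470.1 to 492 CPM in RCH-ACV. *SLC29A2* was at 3.44 to 4.14 CPM in REH, 10.8 times lower than in 697 and 13.8 times lower than in RCH-ACV. Between REH and 697 21 of 23 genes were called (4 higher in REH), between REH and RCH-ACV 18 (5 higher in REH) and between RCH-ACV and 697 18 (6 higher in RCH-ACV), against the same 75.7%, 73.8% and 63.6% of all tested genes.

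The 20 genes of purine synthesis and salvage had 0 calls in REH (19 tested, median -0.03) and 0 in 697 (19 tested, median 0.01) by edgeR and 1 in RCH-ACV (20 tested, median 0.08), *AMPD2*, an AMP deaminase (log2 0.23). Among all tested genes 4.64% were called in REH, 0.559% in 697, 7.64% in RCH-ACV and 9.02% over the 3 lines. Of 18 genes of thymidylate and deoxynucleotide supply 17 were tested in each line. In REH *TK1*, *DCK*, deoxycytidine kinase (0.17), and *RRM2* were higher and *NME1*, a nucleoside diphosphate kinase (-0.19), was lower, with a list median of 0.08. In 697 0 were called (edgeR, median 0.02), and in RCH-ACV *TK1* (0.20) and *CAD*, the enzyme that starts pyrimidine synthesis (0.16), were higher, with a median of -0.01. Over the 3 lines *TK1* (log2 0.19, edgeR's adjusted p = 0.000443) and *DUT*, the dUTPase (0.08, edgeR's adjusted p = 0.0468), rose, and the purine list had 0 calls among 20. With 1 sample left out at a time, the joint call of *DUT* held in 3 of 18 fits and that of *TK1* in 18. Within RCH-ACV the calls of *TK1*, *CAD* and *AMPD2* each held in 2 of 6 such fits, and in REH that of *TK1* held in 6, those of *DCK* and *NME1* in 5 and that of *RRM2* in 4. Between lines 18 (REH and 697), 14 (REH and RCH-ACV) and 15 (RCH-ACV and 697) of the 20 purine genes were called. Of the 17 deoxynucleotide genes 15 were called in each comparison, against 75.7%, 73.8% and 63.6% of all tested genes. *IMPDH2*, *AMPD3*, *SHMT1*, *TK2* and *DCK* were among those called. *AMPD3* stood at 6.41 to 10.6 CPM in REH, 11.3 to 15.4 CPM in RCH-ACV and 0.246 to 0.946 CPM in 697. *DCK* was 1.83 times higher in REH than in RCH-ACV.

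Of the 19 S-phase genes, 14 were called between REH and 697 (12 higher in REH), 16 between REH and RCH-ACV (15 higher in REH) and 15 between RCH-ACV and 697 (6 higher in RCH-ACV), where 75.7%, 73.8% and 63.6% of all tested genes were called, with median log2 differences of 0.34, 0.41 and -0.17. For *TYMS* the same differences were 0.06, 0.45 and -0.39. The part of cell cycle in them was not tested.

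The genes whose centred log2 levels lay nearest to each member over the 18 samples were looked up among 9908 genes whose mean reached 10 CPM, by the root mean square difference. *TYMS* was nearest to *TMBIM6* (0.035) and its overlapping neighbour *ENOSF1* (0.040). *PRPS1* was nearest to *UQCRC2* (0.042) and *CIAO1* (0.046), *HPRT1* to *FADS1* (0.057) and *ARPC2* (0.062), and *FPGS* to *ACTN4* (0.069) and *SERF2* (0.070). *SLC19A1* was nearest to *INO80E* (0.076) and *WRAP53* (0.081), *GGH* to *SCPEP1* (0.092) and *RBM15B* (0.095), *NT5C2* to *MORC3* (0.095) and *SSH2* (0.106), and *TPMT* to *EIF2AK3* (0.117) and *LDAF1* (0.126). The members' own root mean square deviation from their means ran from 0.072 for *PRPS1* to 0.900 for *TPMT*. No 2 members were each other's nearest genes, and between 3 and 51 genes lay within 1.5 times the nearest distance, so the named genes are not singled out by much.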

How the data were processed

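Per the labels, total RNA was made into stranded mRNA libraries, and the authors counted reads per RefSeq transcript. The submitters' processing notes name bcl2fastq, FastQC 0.10.1, STAR 2.5.3a, HOMER and hg19. The strand setting and any handling of reads shared by transcripts are not given in the sources used here. The deposited values were raw counts for 50678 transcripts, of which 98.0% (99.0% of counts) matched a symbol in the gene name tables. They had no normalization and no column without a sample.

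Knockdown effects were fitted in each line with edgeR 4.0.16 in R 4.3.3 (TMM, filterByExpr, quasi-likelihood F-test, two-sided, Benjamini-Hochberg over all tested genes, threshold 0.05). Lines, the interaction of line and siRNA, and the effect common to the lines were fitted over 18 samples. Printed CPM values used TMM over 18 samples, so a fold within a line can differ slightly from their ratio. RPKM used GENCODE transcript lengths, which 13182 of 14026 tested genes had. The scripts were tested on simulated data. DESeq2 1.42.0, other scalings, filters and counting units, a block for the replicate number and each sample left out were alternatives, and the GC correction (20 bins, GC known for at least 94.0% of genes) and the *FPGS* to *GGH* ratio were added after seeing the data. From each pathway list the called genes were named, at most 4 per siRNA comparison by adjusted p and 3 per line comparison by size, and those shown for their levels come from these. *ABCG2* in 697 and RCH-ACV and *CCNE2* in 697 were named for comparison. The genes and lists were chosen with earlier results of these data known. Totals and intervals cover counting error and the spread between these samples. Some genes of the lists and a label of the lines are not reported here.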

Additional observations from a re-analysis of the deposited data

Results flagged for a closer look

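The siRNA effect on *CCNE2*, cyclin E2, differed between the lines by edgeR's test of the interaction of line and siRNA (adjusted p = 0.009479), the only S-phase gene of 19 for which it did. The log2 fold change with *SOX11* siRNA was 0.19 in REH, -0.02 in 697 and -0.33 in RCH-ACV. None of the 8 drug-response genes showed such a difference.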

How the results depend on the processing

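At an adjusted p under 0.01 they were 275 in REH, 27 in 697, 407 in RCH-ACV, 606 for the common effect (1 member, *FPGS*) and 48 for the interaction. DESeq2 called 313 in REH and 582 in RCH-ACV. With all transcripts kept apart, which repeats genes, 1490, 217, 2615, 3132 and 326 transcripts were called in that order, with 1 member in REH and 2 in RCH-ACV, and 24310, 23568 and 20620 between lines. A single fit over the 18 samples called 242 in REH and 194 in 697. Library size alone called 1 member in RCH-ACV. The GC correction called 918 genes in REH (2 members) and 128 in 697. Replicate numbers did not pair the samples (correlations of deviations -0.15 to 0.16), and blocking on the replicate number (replicate block) left 29 genes called in 697, 823 for the common effect (1 member) and 45 for the interaction, where *GGH* (edgeR's adjusted p = 0.0575) and *HPRT1* (0.0861) lost the common call. Without the filter on low counts *HPRT1* lost it too (0.0669). The cause of these changes was not tested.

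Leaving out 1 sample gave 299 to 523 genes in REH (0 to 1 member), 25 to 71 in 697 (0 members), 386 to 2524 in RCH-ACV (0 to 3 members), 911 to 1470 for the common effect (2 to 3 members), 57 to 186 for the interaction (0 members), and 10212 to 10766, 9831 to 10549 and 8372 to 9093 between lines (6, 5 to 8 and 5 to 7 members). The RCH-ACV count was between 386 and 536 without any other sample of that line. The *FPGS* to *GGH* log2 difference stayed between 0.24 and 0.29 (exact permutation p of 5e-04 to 0.0055). The ratio was formed after the values of both genes were known, so these p-values restate those values and are no separate test.

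The following values turned sign, the largest of them *SLC19A1* in REH (0.08 with all samples). With library size alone *PRPS1* between REH and 697 was 0.11 and *SLC19A1* between RCH-ACV and 697 was 0.00495. With all transcripts apart *PRPS1* was -0.00037 in RCH-ACV and 0.000799 between REH and 697. Leaving out 1 sample took *GGH* (-0.048 to 0.036, and 0.018 without *SOX11* sample 1), *SLC19A1* (-0.0079 at the lowest) and *PRPS1* (-0.0014 to 0.035) across 0 in REH, *NT5C2* (0.0095 at the highest), *TPMT* (-0.077 at the lowest and -0.020), *SLC19A1* (-0.133 to 0.053) and *TYMS* (-0.0035 at the lowest) in 697, *PRPS1* (-0.032 to 0.034, with -0.019 and -0.0085) in RCH-ACV, and *TPMT* (-0.0077 to 0.050) in the common effect. Between lines it did so for *PRPS1* (REH over 697, -0.030 to 0.010, with 0.0087) and *SLC19A1* (RCH-ACV over 697, -0.142 to 0.037).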

Other observations

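Where a gene had several RefSeq transcripts in the tables, most of their counts were shared rather than added. For *FPGS*, which makes methotrexate polyglutamates, the other transcripts had between 88.9% and 100.07% of the count of the kept transcript in each sample. For *NT5C2*, the thiopurine nucleotidase, the second transcript had between 98.7% and 99.9%. For *PRPS1* a second form had between 76.7% and 79.8%. For *SLC19A1*, the reduced folate carrier, one further form had between 49.8% and 59.0% and the other between 94.0% and 98.5%. Counts of these forms therefore cannot be added, and the forms of a gene cannot be told apart at this resolution. In each control sample *HPRT1* had between 2.98 and 3.31 times the count of *TPMT* in REH, between 16.6 and 19.4 times in 697 and between 9.89 and 10.3 times in RCH-ACV.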
